A study of Mus musculus with 2 samples.

Results

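The common gamma chain cytokine receptor genes encode the shared gamma chain and other chains of its receptors. These 8 genes are Il2rg, for the gamma chain, and Il7r, Il2ra, Il2rb, Il15ra, Il4ra, Il21r and Il9r, for the others. They were examined in a chromatin profile of the transcription factor TCF-1 in mouse lymphoid tissue inducer (LTi) cells, innate lymphoid cells that help to build lymph nodes and Peyer's patches. The deposited table lists islands, stretches in which sequencing reads cluster, on the mm10 build. An island was assigned to a gene when it overlapped by at least 1 bp the RefSeq gene body plus 10 kb on either side, called the locus below. This gave 32 of the 19531 islands, and none of the 32 was shared between 2 of the 8 genes.

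The 2 samples were Tcf7+/+ LTi cells from Peyer's patches and Tcf7fl/fl-VavCre LTi cells from small intestinal lamina propria, both from C57BL/6 mice. In the second genotype Cre under the Vav promoter, which is active across blood-forming cells, deletes the floxed Tcf7 gene that encodes TCF-1. Both were sorted as lineage-negative cells with CD127 and CCR6 on their surface and without KLRG1, NK1.1 and NKp46, and each library came from 500 fixed cells in which an anti-TCF-1 antibody guided micrococcal nuclease to chromatin (ChIC-seq). Genotype and tissue differ together, each has 1 library, and the age, sex and number of mice are not given in the labels. The table names its 2 read columns peak and control without naming a sample. Its control column could not be tied to either genotype, since the Tcf7+/+ sample itself carries Ctrl in its title, so each value below belongs to a peak or a control library and says nothing on which genotype was higher. The whole table sums to 483771 peak-library and 189291 control-library reads, and how deeply either library was sequenced outside islands is unknown. Because an island is not a measure of expression, marker genes of cell types were described by islands only. Of the LTi genes, Il7r among them, 9 of 9 had one, where 54.7% of all protein-coding loci did. So did 5 of 6 T cell, 5 of 5 B cell, 3 of 5 NK cell and ILC1, 2 of 4 ILC2 and 2 of 4 epithelial genes. The B cell list was as complete as the LTi list, so these counts cannot test the label LTi.

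The gamma chain has no ligand of its own. It joins other chains to form the receptors for IL-2, IL-4, IL-7, IL-9, IL-15 and IL-21. Its tail carries the kinase JAK3, which works with JAK1 on a partner chain to activate STAT factors. IL-7 signalling through the chain encoded by Il7r, which is CD127, promotes the survival of lymphocytes and innate lymphoid cells, and since CD127 was used in the sort, the protein was on the cells of both genotypes.

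All 8 genes had an island, where 54.7% of the 21887 protein-coding loci did. At the authors' false discovery rate (FDR) of 0.05 or less, which sets the peak library against the scaled control library, 7 of the 8 had a called island, where 40.3% of loci did. Their loci were somewhat longer than most, with a median of 48.0 kb against 37.2 kb, and a longer locus has more room for islands. Relative to length, 5 of the 8 genes (Il2rg, Il7r, Il2ra, Il2rb and Il4ra) lay above the 95th percentile of all protein-coding loci in islands per 10 kb, and Il9r was the lowest, at the 63.7th percentile. The excess of the peak over the control library was not larger than elsewhere. Of the 32 islands 18 were called, 56.3%, where 62.5% of all islands were, and the median fold was 1.53 where it was 1.84 over the nuclear islands that hold under 200 reads of the peak library. Summed over the 32 islands, 700 peak-library and 227 control-library reads gave a pooled fold of 1.54 (95% interval 1.33 to 1.80), and the same over those 19513 nuclear islands was 1.62 (1.61 to 1.63). For a pooled fold, peak-library reads are summed over islands and divided by the control-library sum after multiplying that sum by 1.997, the factor the caller used to scale the libraries. Exact intervals reflect counting error alone, and PCR copies of a molecule are not independent reads.

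**Figure D1:**
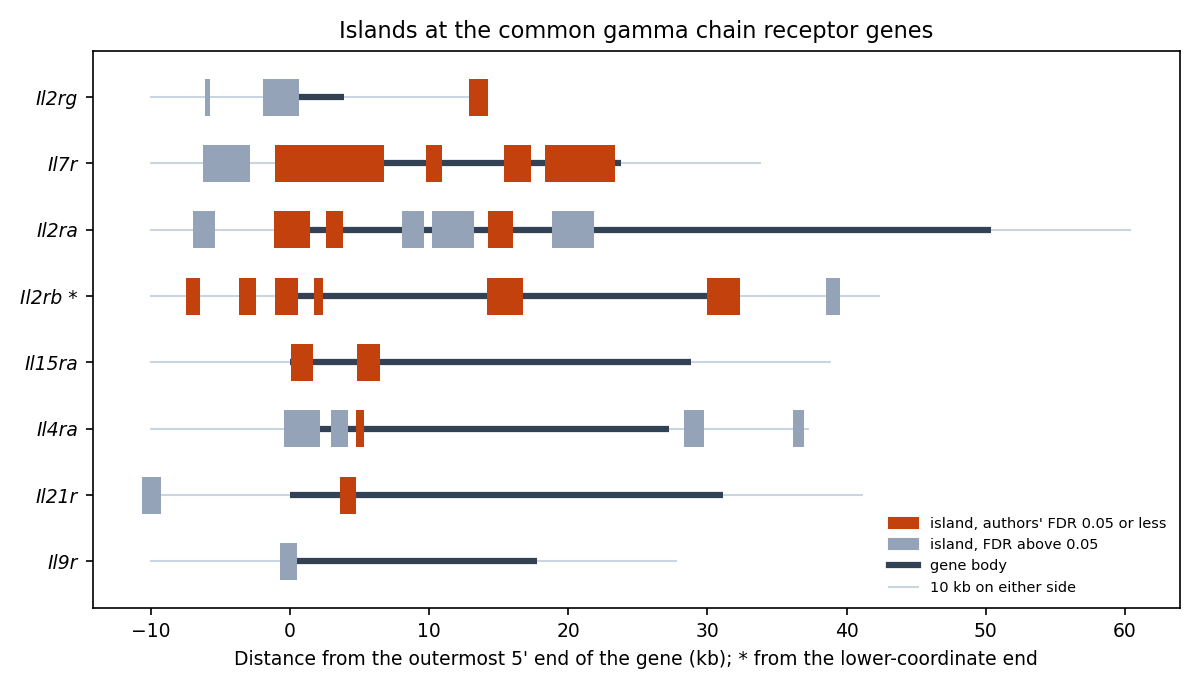
Islands at the 8 genes, 1 row per gene, drawn to scale as distance in kb from the outermost 5′ end of the gene (for Il2rb, marked with an asterisk, from its lower-coordinate end). Orange boxes are islands at the authors' FDR of 0.05 or less and grey boxes the others; the 4 islands over Il7r run along the whole gene, whereas the 6 over Il2ra stop 28.6 kb before its far end.

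Promoter windows from RefSeq (GRCm38.p6, 250 bases before to 50 after a gene start) matched 7 of the 8 genes; Il2rb did not match. In 5 of the 7, Il2rg, Il7r, Il2ra, Il15ra and Il4ra, an island overlapped the window, where this held for 39.7% of 17492 protein-coding genes in the promoter table. At Il21r and Il9r no island reached it. The windows of Il7r, Il2rg, Il2ra and Il15ra are shown as examples of windows that lie in an island. Il4ra, whose window lies in an island too, had no motif match, and the first of the 2 Il15ra windows lies in the island with 142 of its 300 bases. Capitals mark letters that match 1 of 5 short motifs searched on both strands. The motifs were CTTTGAA or CTTTGAT for TCF and LEF factors, TTCNNNGAA for STAT factors, TGTGGT for RUNX factors, CGGAAG for ETS factors and TGANTCA for AP-1. Of 32851 promoter windows in the table, 8.65%, 8.30%, 16.8%, 16.9% and 7.81% hold them, in that order. No match overlapped another.
Il7r, chr15:9529827-9530126, minus strand: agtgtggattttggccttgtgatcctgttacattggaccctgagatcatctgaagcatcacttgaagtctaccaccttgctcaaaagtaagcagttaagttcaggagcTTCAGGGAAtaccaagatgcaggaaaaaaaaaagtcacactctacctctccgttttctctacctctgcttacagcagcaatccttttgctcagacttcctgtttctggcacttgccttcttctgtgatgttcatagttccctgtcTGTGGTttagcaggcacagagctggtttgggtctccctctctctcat
Il2rg, chrX:101268206-101268505, minus strand: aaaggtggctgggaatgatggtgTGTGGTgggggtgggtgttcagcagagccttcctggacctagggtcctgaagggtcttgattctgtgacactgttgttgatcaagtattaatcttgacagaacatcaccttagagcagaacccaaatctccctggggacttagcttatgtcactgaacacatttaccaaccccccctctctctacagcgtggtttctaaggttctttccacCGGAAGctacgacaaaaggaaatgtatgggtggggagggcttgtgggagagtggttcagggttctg
Il2ra, chr2:11642542-11642841, plus strand: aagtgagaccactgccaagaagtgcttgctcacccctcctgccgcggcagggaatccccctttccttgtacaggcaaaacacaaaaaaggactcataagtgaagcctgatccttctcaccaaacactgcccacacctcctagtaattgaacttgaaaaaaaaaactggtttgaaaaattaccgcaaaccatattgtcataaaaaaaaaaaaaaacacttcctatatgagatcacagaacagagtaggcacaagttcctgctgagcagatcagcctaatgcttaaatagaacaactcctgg
Il15ra, chr2:11705462-11705761, plus strand: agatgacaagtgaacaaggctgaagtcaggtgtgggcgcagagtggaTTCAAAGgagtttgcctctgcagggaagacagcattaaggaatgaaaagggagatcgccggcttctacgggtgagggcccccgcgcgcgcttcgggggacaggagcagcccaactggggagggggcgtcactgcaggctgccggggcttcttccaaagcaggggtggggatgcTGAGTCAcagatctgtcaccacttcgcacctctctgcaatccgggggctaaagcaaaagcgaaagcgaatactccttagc
The TCF and LEF letters occurred in 1 of the 8 windows of these 7 genes, the second of Il15ra, as TTCAAAG on the printed strand, beginning 203 bases before the start. That window also held an AP-1 match 30 bases before the start. The Il7r window held a STAT match, TTCAGGGAA, beginning 142 bases before the start, and a RUNX match just downstream of the start. The Il2rg window held a RUNX match 227 bases and an ETS match 16 bases before the start. The RUNX letters occurred in 4 of the 8 windows, also those of Il21r and Il9r, which no island reached, and the ETS letters also in the first Il15ra window, 103 bases before the start. The Il2ra window held none of the 5, and neither did that of Il4ra. A match is a run of letters, not a measured binding site, and the islands are far wider than these windows.

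Il2rg, which encodes the shared gamma chain, lies on chromosome X at 101264385 to 101268255, on the minus strand, and is 3.87 kb long. The island over its start, at 101267601 to 101270200, held 20 peak-library and 12 control-library reads, a fold of 0.835 (0.389 to 1.87). It was 1 of 2 member islands with a fold below 1, a class that makes up 10.2% of all islands. A second island lay 8.99 kb beyond the far end of the gene, over Foxo4, a forkhead factor gene, with 15 against 4 reads and an FDR of 0.0154. The third, upstream over Med12, a Mediator subunit gene, had 8 against 3 reads and was not called. Together they held 43 against 19 reads, a pooled fold of 1.13 (0.646 to 2.06) that was the lowest of the 8 and, with the gene body alone or 5 kb on either side, rested on the island over the start alone, with 0.835. For chromosome X as a whole, 253 islands under the same limit of 200 reads pooled to a fold of 1.66 (1.55 to 1.77), against 1.62 (1.61 to 1.63) for the autosomes.

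Il7r, which encodes the IL-7 receptor alpha chain, lies on chromosome 15 at 9506159 to 9529941, on the minus strand. Its 5 islands held 192 peak-library and 68 control-library reads, the most of the 8 genes in both libraries. Islands covered 44.3% of its locus, the 99.8th percentile of protein-coding loci. The median was 1.26% over all these loci and 5.45% over those with an island. The widest, at 9523201 to 9531000, spans the start and the first part of the gene. At 7.8 kb it ranked 12th in width among all 19531 islands, whose median width was 1400 bp, and it held 85 against 32 reads, an authors' fold of 1.33 and an FDR of 0.00975. Per length the Il7r locus had 43.9 peak-library and 15.5 control-library island reads per 10 kb, the 99.2th and the 98.8th percentile. Only reads inside islands are counted, so both values rise with the share of the locus that islands cover. Within its islands the peak library had 6.8 to 13.3 reads per kb of island. Reads of either library outside islands are unknown.

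The other 4 Il7r islands divide by position. An island 2.86 kb upstream of the gene, at 9532801 to 9536200, held 41 against 18 reads and was not called (fold 1.14, FDR 0.224). Il7r is known to have an upstream enhancer bound by FOXO1 and the glucocorticoid receptor; whether this island covers it was not tested. The island in the body of the gene at 9519001 to 9520200, 10.3 kb from the RefSeq start site to its middle, had the highest fold of the 5, 2.67, from 16 against 3 reads. Near the 3′ end the islands at 9512601 to 9514600 and 9506601 to 9511600 had 16 against 4 and 34 against 11 reads, and both were called (FDR 0.00752 and 0.0124). The pooled fold of Il7r was 1.41 (1.07 to 1.89), at the 37.6th percentile of those among the 11974 loci with an island whose islands held control-library reads.

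**Figure D2:**
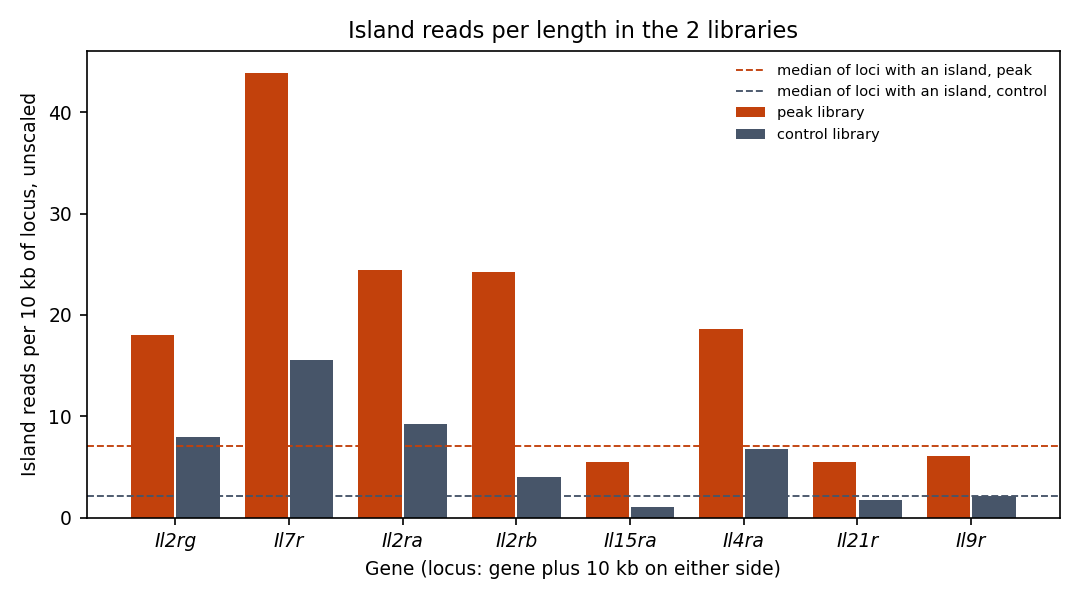
Island reads per 10 kb of locus for each gene (bars, from 0) in the peak library (orange) and the control library (dark grey), unscaled, with dashed lines at the medians of loci that have an island, 7.10 and 2.16. Il7r stands at 43.9 and 15.5, while Il2ra and Il2rb have nearly the same peak-library value, 24.4 and 24.3, but 9.23 against 4.01 in the control library.

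Il2ra encodes CD25, the chain that gives the IL-2 receptor its high affinity, and lies on chromosome 2 at 11642792 to 11693194, on the plus strand. It had 7 islands, 3 of them called, and 172 against 65 reads pooled to a fold of 1.33 (0.991 to 1.79). The island over its start, at 11641601 to 11644200, had 29 against 10 reads and an FDR of 0.0354. The 6 islands that overlap the gene all lay within 21.8 kb of its start, and the remaining 28.6 kb of the gene had none. Within that stretch the island at 11653001 to 11656000 held the most reads, 43 against 17, and was not called (FDR 0.0818), while that at 11645401 to 11646600 had the highest fold, 2.50, from 15 against 3 reads. An island in the same stretch, at 11650801 to 11652400, was the other member island with a fold below 1, with 11 against 6 reads. The seventh, 5.39 kb upstream, had 14 against 7 reads, a fold of 1.00. The Il2ra gene is known to carry enhancers upstream and in its first intron; exon positions were not used here.

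Il2rb encodes the beta chain shared by the IL-2 and IL-15 receptors and lies on chromosome 15 at 78479256 to 78511621. Its 7 islands held 127 against 21 reads, a pooled fold of 3.03 (1.90 to 5.06), the highest of the 8 genes. It lay at the 88.2th percentile of loci whose islands held control-library reads, so loci without a control read are not ranked. The interval lay above the 1.62 of nuclear islands and above the intervals of Il7r and Il2ra, by a narrow margin for Il7r, and overlapped those of the other 5 genes. This difference was not tested. Of the 7 islands 6 were called. Those inside the gene at 78493401 to 78496000 and at its higher-coordinate end, 78509201 to 78511600, had 41 against 9 reads (fold 2.28, FDR 5.31e-06) and 25 against 4 reads (fold 3.13, FDR 2.05e-06).

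The 2 member islands without a control read were both at Il2rb, where 5.69% of all islands had none. They lay at 78475601 to 78476800, 2.46 kb outside the lower-coordinate end, and at 78481001 to 78481600 inside the gene. Each had 12 peak-library reads and was at least 2.00-fold higher when 3 control reads, the limit that a count of 0 allows in an island, were put in place of none. With the counting error of the 12 reads included as well, the exact 95% interval began at 1.39. Il2rb had about as many peak-library reads per 10 kb as Il2ra but fewer control-library reads per 10 kb, as the plot of island reads per length shows. Of its 7 islands 3 also lie within 10 kb of Tmprss6 and 1 within 10 kb of C1qtnf6.

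Il15ra, which encodes the chain that holds IL-15 for presentation to neighbouring cells, lies on chromosome 2 at 11705172 to 11733985, 12.0 kb beyond the far end of Il2ra. Its 2 islands lay in the first 6.43 kb of the gene and both were called. The island over its starts, at 11705201 to 11706800, had 16 against 3 reads and an FDR of 0.000529, and the next, at 11710001 to 11711600, had 11 against 2. Pooled they gave 2.70 with a wide interval of 1.03 to 8.99, from 27 against 5 reads. The remaining 22.4 kb of the gene had no island, and the nearest island on the other side, in Il2ra, lay 40.6 kb away.

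**Figure D3:**
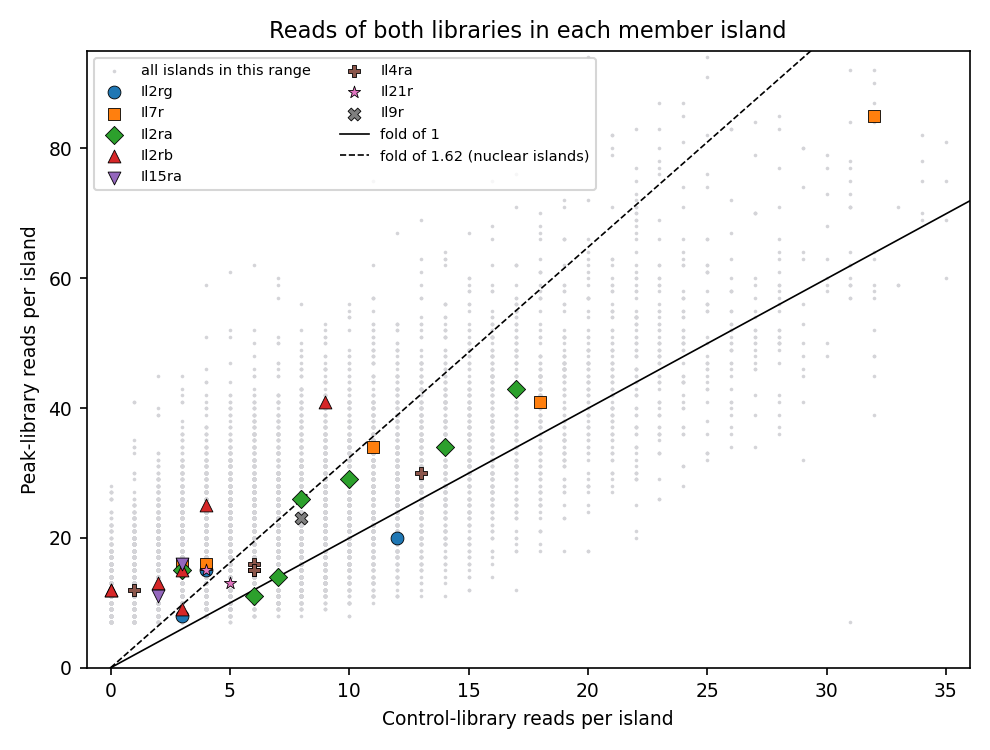
Reads of the peak library (vertical axis) against the control library (horizontal axis) in each of the 32 member islands, with all nuclear islands in this range as light grey points; the solid line marks a fold of 1 and the dashed line 1.62. The Il2rb islands sit at the left, with 0 to 9 control-library reads, while the Il7r island over the gene start stands at the upper right with 85 against 32; some symbols overlap.

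Il4ra encodes the IL-4 receptor alpha chain, which also serves IL-13, and Il21r the IL-21 receptor. They are neighbours on the plus strand of chromosome 7, Il4ra at 125552271 to 125579474 and Il21r at 125603252 to 125634397. Il4ra had 5 islands whose 88 against 32 reads pooled to 1.38 (0.909 to 2.13), and 1 of the 5 was called. That island, at 125557001 to 125557600 inside the gene, was short and had 12 against 1 reads, a fold of 6.01 with an interval of 0.889 to 257. The island over the start, at 125551801 to 125554400, had 30 against 13 reads and was not called (FDR 0.233). Nor was the next, at 125555201 to 125556400, with 15 against 6 reads, nor those 1.13 and 8.93 kb beyond the far end of the gene, with 16 against 6 and 15 against 6. Il21r had 2 islands, 28 against 9 reads, pooled to 1.56 (0.715 to 3.75). Its island inside the gene, at 125606801 to 125608000, had 15 against 4 reads and an FDR of 0.0154. The other lay 9.25 kb upstream, had 13 against 5 reads and was not called.

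Il9r, which encodes the IL-9 receptor, had the fewest islands of the 8. It lies on chromosome 11 at 32187544 to 32205283, on the minus strand. Its single island, at 32204801 to 32206000, covers the outermost end of Il9r and part of Snrnp25, a splicing factor gene, and its middle lies 5.12 kb upstream of the start site in the promoter table. It held 23 against 8 reads, a fold of 1.44 (0.622 to 3.72) and an FDR of 0.0566, just above the threshold, so that Il9r was the gene of the 8 with no called island. No further island was found within 50 kb of it.

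Islands inside genes lay mostly on the 5′ side, at the member genes as over protein-coding genes in general. Of 16 islands with their middle inside a member gene of known strand, 14 (87.5%) lay in the first 50% of the gene. Over 9924 such islands of 5941 protein-coding genes the share was 75.0%. The 16 came from 5 genes, and the difference was not tested. The 2 exceptions were both at Il7r. With 50 kb in place of 10 kb on either side, the 8 genes had 47 islands, 31 of them called. Within the 10 kb flank the most distant island was that 9.25 kb upstream of Il21r. Beyond 10 kb, the nearest island that belonged to none of the 8 loci was 15.7 kb from Il2rb, with 10 against 1 reads.

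Across the 8 genes the intervals of Il7r, Il2rb and Il15ra lay above 1 and those of the other 5 included it. This split depended on the flank: the interval of Il2ra lay just above 1 with the gene body alone, and with 50 kb on either side those of Il2ra (1.16 to 1.99), Il4ra (1.00 to 2.03) and Il21r (1.04 to 2.17) did. These 50 kb values are not separate results. The windows of Il4ra and Il21r then overlap and share islands, and that of Il2ra takes in the islands of Il15ra. In order of pooled fold, Il2rb (3.03) and Il15ra (2.70) came first, followed by Il21r (1.56), Il9r (1.44), Il7r (1.41), Il4ra (1.38), Il2ra (1.33) and Il2rg (1.13). Neighbours in this order had overlapping intervals throughout. The chains that make up the IL-2 and IL-15 receptors apart from the gamma chain, Il2ra, Il2rb and Il15ra, had 11 of 16 islands called (68.8%), near the 62.5% of all islands, and Il4ra and Il21r together had 2 of 7 (28.6%). The difference between these groups was not tested. The caller's test takes the control reads of an island as known without error. An exact conditional binomial test that counts the error of both libraries, two-sided and with Benjamini-Hochberg adjustment over all 19531 islands, called 0 of the 32, where 0.374% of all islands were called. The smallest adjusted p of the 32 was 0.176, and 4 had an unadjusted exact p below 0.05, where 18.5% of all islands did. All 4 were at Il2rb, the lowest being p = 0.0115 by the exact test for each of the islands without a control read. Their 12 against 0 reads are the most extreme split that 12 reads allow in favour of the peak library. Islands with so few reads could therefore not be called in that direction, and for them the lack of a call is not informative. At the caller's stricter FDR of 1e-05 or less, 5 of the 32 were called, where 20.7% of all islands were: 4 at Il2rb and 1 at Il4ra. Of the 4 at Il2rb, 2 are the islands without a control read, whose FDR rests on 0.25 control reads in place of none. These tests compare 2 libraries, not the genotypes.

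**Figure D4:**
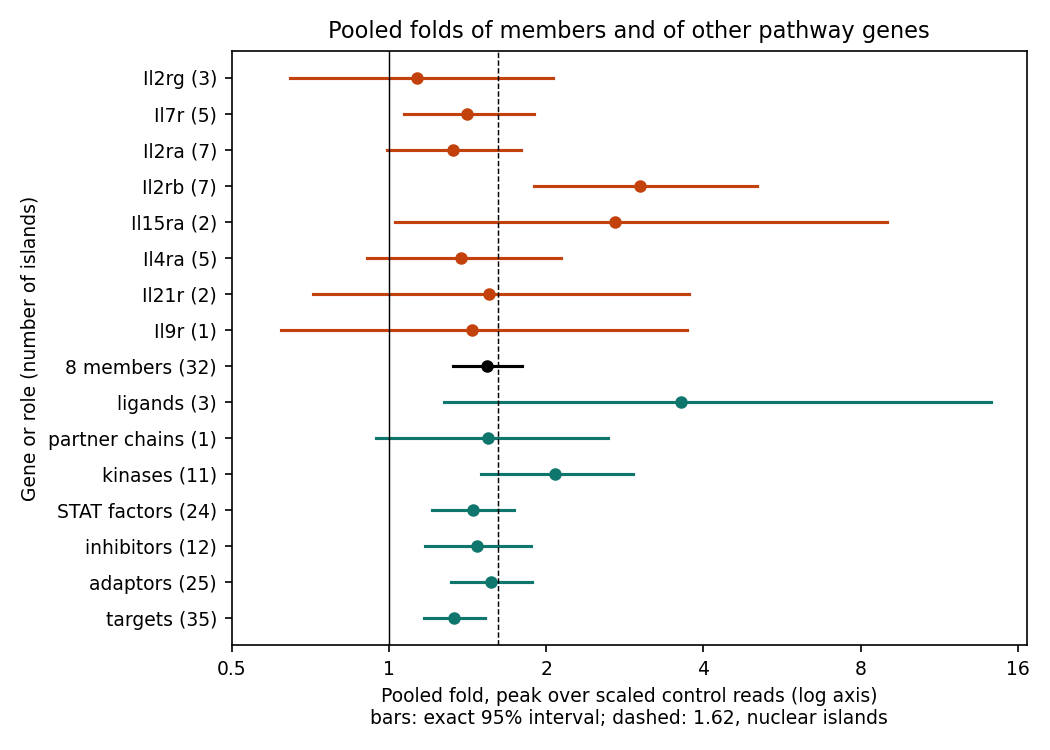
Pooled fold of peak over scaled control reads (log axis) for each of the 8 genes (orange), for all 32 islands (black) and for the other genes of the pathway by role (green), with exact 95% intervals and the number of islands in brackets. Il2rb at 3.03 is the gene whose interval lies wholly above the dashed line at 1.62.

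Other genes of the pathway were counted the same way. Of the ligand genes 2 of 6 had an island, Il2 and Il9, where 8 of 8 receptor genes and 54.7% of all protein-coding loci did; this difference was not tested. Il2, the T cell growth factor gene, had 2 islands with 21 against 2 reads, 5.26 when pooled (1.29 to 46.3), and Il4 had none. Of the partner chains, Crlf2, which pairs with the Il7r product in the receptor for TSLP, had 1 island with 68 against 22 reads, and Il13ra1, which pairs with the Il4ra product, had none. Both kinase genes, all 5 STAT genes, all 4 inhibitor genes, all 4 adaptor genes and all 5 target genes had a called island. In all, 23 of the 28 pathway genes did, where 40.3% of all loci did. This count is not adjusted for length, and several of these genes, such as Bcl2 and Jak1, are long and have more room for islands. Neighbours that share islands were each counted. Jak1, with 9 islands, Stat5b, with 12, and Bcl2, with 19, had the most in their groups. Cish, a feedback inhibitor induced by STAT5, had 5 islands with 137 against 51 reads, 1.35 when pooled (0.969 to 1.89). Pik3r1, which encodes a regulatory subunit of PI 3-kinase, had 9 islands with 158 against 44 reads, 1.80 when pooled (1.28 to 2.57). With islands shared by Stat3, Stat5a and Stat5b counted once, the 111 islands of these genes had a pooled fold of 1.48 (1.37 to 1.61), and 62 of them (55.9%) were called, where 62.5% of all islands were.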

How the data were processed

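The submitters' processing notes name Bowtie2 2.4.2, SICER 2.0, which calls islands, and mm10 for the 2 ChIC-seq libraries. For window, gap and duplicate settings, the choice is not given in the sources used here. The read counts per island were deposited by the authors as whole reads of a peak and a control library, without scaling. The p-value and FDR per island and the fold, a ratio of peak to scaled control reads, are the authors' deposited values. The scaling factor, 1.997, was read back from those folds. For the member islands without control reads the deposited fold, p-value and FDR rest on 0.25 control reads in place of none, so that fold is not printed. Positions count from 1, after adding 1 to the table's starts and ends.

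Loci, counts and exact (Clopper-Pearson) 95% intervals were computed with Python 3.11.15, pandas 2.3.3 and SciPy 1.17.1 from RefSeq genes of GRCm38.p6; the binomial test was checked on simulated reads. Percentiles rank a locus among 21887 protein-coding loci, with ties at mid-rank. Those of a pooled fold rank it among the loci whose islands held control-library reads. Named are all 8 members, all their islands, neighbours under them and, per pathway role, the gene with most islands and the first without one. Members and lists were chosen with earlier results of these data known. With 1 library per group no test between conditions was made. Alternatives varied the flank, the overlap, the read minimum, the FDR threshold, the scaling and the genes included.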

Additional observations from a re-analysis of the deposited data

How the results depend on the processing

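The count of 32 islands, of 18 called islands, the pooled fold of 1.54 and the 23 pathway genes with a called island were recomputed under 36 alternatives, and 28 left them within 1.5 times of the count or inside the interval of the fold. With 50 kb on either side there were 47 islands, 31 of them called. With at least 20 peak-library reads per island, 12 islands remained, 6 of them called. The share called among all islands with as many reads is not given here. At an FDR of 1e-05 or less, 5 member islands were called, where 20.7% of all islands were, and 12 pathway genes had a called island. The share of all loci with an island at this threshold is not given here, so the 12 cannot be set against it. The exact binomial test of both counts called 0 member islands (4 at an unadjusted p below 0.05). The pooled fold was 1.21 with equal totals and 3.08 with no scaling, which shift every log2 fold by -0.36 and 1.00. Equal totals means a factor of 2.556, the ratio of all island reads in the 2 libraries. It sets the pooled fold of all islands to 1, so any general excess of the peak library in islands is removed. The 19513 nuclear islands under 200 peak-library reads hold 386196 of the 483771 peak-library and 119307 of the 189291 control-library reads in these totals. The fold of Il2rg was 0.886 with equal totals and 0.835 with the gene body alone or a 5 kb flank, on the other side of 1. With equal totals the interval of Il7r, 0.834 to 1.48, included 1, as did that of Il15ra, 0.802 to 7.03. Leaving out each gene in turn gave 1.39 (without Il2rb) to 1.63. The interval of Il2ra excluded 1 with the gene body alone or 5 kb (1.00 to 1.88) and with 50 kb (1.16 to 1.99), as did those of Il4ra and Il21r with 50 kb. At 50 kb the windows of Il4ra and Il21r share islands, and that of Il2ra takes in the islands of Il15ra. With 50 kb the fold of Il2rb was 2.14 (1.59 to 2.94), which overlapped the 1.29 to 2.05 of Il7r. No paired analysis was possible because each genotype has 1 library. With a median of 5.5 control reads per member island, counting error limits what single islands can show.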

Other observations

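Islands over a promoter had a smaller excess of the peak library than the others across the table. Among nuclear islands that hold under 200 reads of the peak library, the 6329 that overlap a protein-coding promoter window had a pooled fold of 1.42 (1.40 to 1.43), and the 13184 others had 1.80 (1.78 to 1.81). At the member genes the 5 islands over a promoter window, with 180 against 70 reads, had 1.29 (0.972 to 1.72), and the 20 other islands of the 7 genes with a promoter entry had 1.45 (1.19 to 1.77), with intervals that overlap. The promoter islands of Il7r, Il2ra, Il4ra and Il2rg held 20 to 85 peak-library reads and 10 to 32 control-library reads, with folds of 0.835 to 1.45, while that of Il15ra held 16 against 3 reads and had a fold of 2.67.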
